A study of Mus musculus with 18 samples.

Results

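The regulators of mitochondrial biogenesis described here are 10 genes, *Ppargc1a*, *Ppargc1b*, *Esrra*, *Nrf1*, *Gabpa*, *Tfam*, *Tfb1m*, *Tfb2m*, *Polrmt* and *Polg*. They are a list of names, set down with earlier results of these data known, and are 10 of the 45706 genes listed in the count files; all 10 passed the filter on low counts. RNA was sequenced from 18 whole kidneys of male C57BL/6J mice, taken 12 h after both kidneys had been made ischemic for 22.5 min. The Cxcl12 KO group (5 kidneys) was homozygous for a floxed *Cxcl12* allele and carried Pax8rtTA and TetOCre, so that doxycycline switched on Cre in tubular cells. The Cxcl12 Control group (3 kidneys) was homozygous for the same floxed allele and carried Pax8rtTA without TetOCre. The Myc KO group (5 kidneys) and the Myc Control group (5 kidneys) were built in the same way on a floxed *Myc* allele. Controls were littermates, all mice were 10 to 12 weeks old, and all of them, controls included, received doxycycline for 2 weeks followed by 1 week without it. Every kidney was injured, so no value describes a healthy kidney. Deletion was directed to tubular epithelium while RNA came from the whole organ, so RNA of undeleted cells is part of every value.

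Mitochondria are built from proteins of both genomes. The coactivators encoded by *Ppargc1a* (PGC-1alpha) and *Ppargc1b* (PGC-1beta) bind no DNA themselves and act through nuclear factors, among them the orphan receptor ERRalpha (*Esrra*), nuclear respiratory factor 1 (*Nrf1*) and the DNA-binding subunit of nuclear respiratory factor 2 (*Gabpa*). These factors act on nuclear genes of the respiratory chain and on the genes whose products copy and read mitochondrial DNA: the packaging and transcription factor *Tfam*, the transcription factor *Tfb2m*, the ribosomal RNA methyltransferase *Tfb1m*, the RNA polymerase *Polrmt* and the catalytic subunit of the DNA polymerase gamma, *Polg*. The proximal tubule is rich in mitochondria, and PGC-1alpha is known there for its loss in acute kidney injury.

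The promoters of 3 of the mitochondrial DNA genes are shown because they hold letters that the *Nrf1* and *Gabpa* products are known to bind. They are RefSeq sequences on GRCm38.p6, read on the minus strand of all 3 genes from 250 bases before the transcription start to 50 bases after it. Capitals mark matches on either strand to CCGGAAGT, an ETS family motif of the kind GABPA binds, in *Tfam* (chr10:71237995-71238294) and *Polg* (chr7:79466224-79466523), and to CGCANGCG, a core of the NRF1 motif, in *Polrmt* (chr10:79746532-79746831).
Tfam: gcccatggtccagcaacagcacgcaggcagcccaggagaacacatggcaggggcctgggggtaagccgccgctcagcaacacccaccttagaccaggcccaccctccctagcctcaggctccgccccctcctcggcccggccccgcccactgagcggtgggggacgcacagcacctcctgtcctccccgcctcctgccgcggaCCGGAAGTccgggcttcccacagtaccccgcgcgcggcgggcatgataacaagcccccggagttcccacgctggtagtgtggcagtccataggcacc
Polg: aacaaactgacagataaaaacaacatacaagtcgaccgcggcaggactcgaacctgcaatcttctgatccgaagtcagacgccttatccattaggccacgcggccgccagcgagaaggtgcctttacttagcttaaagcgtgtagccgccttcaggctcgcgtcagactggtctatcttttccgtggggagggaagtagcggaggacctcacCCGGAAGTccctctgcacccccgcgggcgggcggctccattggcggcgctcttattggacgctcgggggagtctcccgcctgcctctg
Polrmt: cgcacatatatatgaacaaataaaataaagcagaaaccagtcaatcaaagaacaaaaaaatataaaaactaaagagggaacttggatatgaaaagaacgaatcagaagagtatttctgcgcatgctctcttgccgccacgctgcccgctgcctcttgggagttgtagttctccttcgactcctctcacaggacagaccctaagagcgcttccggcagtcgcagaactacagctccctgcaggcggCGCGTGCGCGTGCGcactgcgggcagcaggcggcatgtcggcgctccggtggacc
With the first transcribed base as position 1, the ETS match began at position -47 in *Tfam* and at position -38 in *Polg*. The *Polrmt* promoter held 2 overlapping NRF1 matches, which began at positions -5 and 2. Promoters were given for 9 of the 10 genes, with 10 start sites in all. The NRF1 letters were in 5 of these 10 promoters (*Tfb2m*, *Nrf1*, *Polrmt*, *Gabpa* and *Esrra*), against 8.21% of 32851 mouse promoters of the same length. The ETS letters were in 2 of 10, against 3.89% of all promoters. CACGTG, the E-box that MYC binds with MAX, was in 0 of 10 (7.15% of all promoters), TCAAGGTCA, the ERR motif, in 0 of 10 (0.423%), and TGACGTCA, the cyclic AMP response element, in 0 of 10 (1.79%). These spellings were settled after others had been searched, a match is a description of letters and not of binding, and no match says only that these letters are not in this window.

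Depth and mapping differed between kidneys. The number of reads assigned to genes ran from 12918220 to 29749500, and from 3.69% to 6.48% of reads were unmapped. In 6 kidneys less than 5% was unmapped: Cxcl12 KO 1 and 2, Myc KO 3 and 5, and Myc Control 1 and 3. These 6 held at least 22437067 reads on genes and the other 12 at most 18006784, and no Cxcl12 Control kidney was among the 6. The study's methods mention an adjustment for batch effects with ComBat, but neither they nor the labels say which kidneys formed a batch. This split is therefore given as it was measured. For some regulators in the KO comparisons, values without these 6 kidneys are given as well, but not for every regulator or comparison. The targeted genes followed the labels: *Myc* was at 31.0 ± 3.95 CPM (SD, n = 5; CPM is the count scaled to a common library size) in Myc KO and 94.9 ± 14.5 (n = 5) in Myc Control kidneys (log2 fold change -1.61, edgeR adjusted p = 8.82e-05). *Cxcl12* was at 32.3 ± 6.07 (n = 5) in Cxcl12 KO and 53.5 ± 7.92 (n = 3) in Cxcl12 Control kidneys, with no overlap, but its log2 fold change of -0.73 did not pass the test in edgeR (adjusted p = 0.0942) and passed in DESeq2 (adjusted p = 0.00178).

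All 10 regulators were expressed in every kidney, at levels that spanned a wide range. Per kb of exon, *Esrra* was highest, with 19.1 ± 3.45 CPM per kb (SD, n = 18). *Gabpa* followed with 12.9 ± 1.71, *Tfam* with 12.0 ± 1.06, *Polrmt* with 8.05 ± 1.21, *Polg* with 7.19 ± 0.441 and *Ppargc1a* with 6.39 ± 0.888. A lower tier held *Nrf1* with 2.98 ± 0.343, *Tfb2m* with 2.72 ± 0.449, *Ppargc1b* with 1.75 ± 0.364 and *Tfb1m* with 1.55 ± 0.318. The step from *Tfam* to *Polrmt*, from *Ppargc1a* to *Nrf1* and from *Tfb2m* to *Ppargc1b* held in 18 of 18 kidneys. Other neighbours were closer: *Esrra* was above *Gabpa* in 16 of 18 kidneys, *Polrmt* above *Polg* in 15 of 18, *Polg* above *Ppargc1a* in 14 of 18, *Gabpa* was above *Tfam* in 12 of 18 kidneys, *Nrf1* above *Tfb2m* in 10 of 18, and *Ppargc1b* above *Tfb1m* in 13 of 18. These lengths count every annotated exon, including those that kidney may not use. *Polg* varied least from kidney to kidney (coefficient of variation 6.14%) and *Ppargc1b* most (20.9%).

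**Figure D1:**
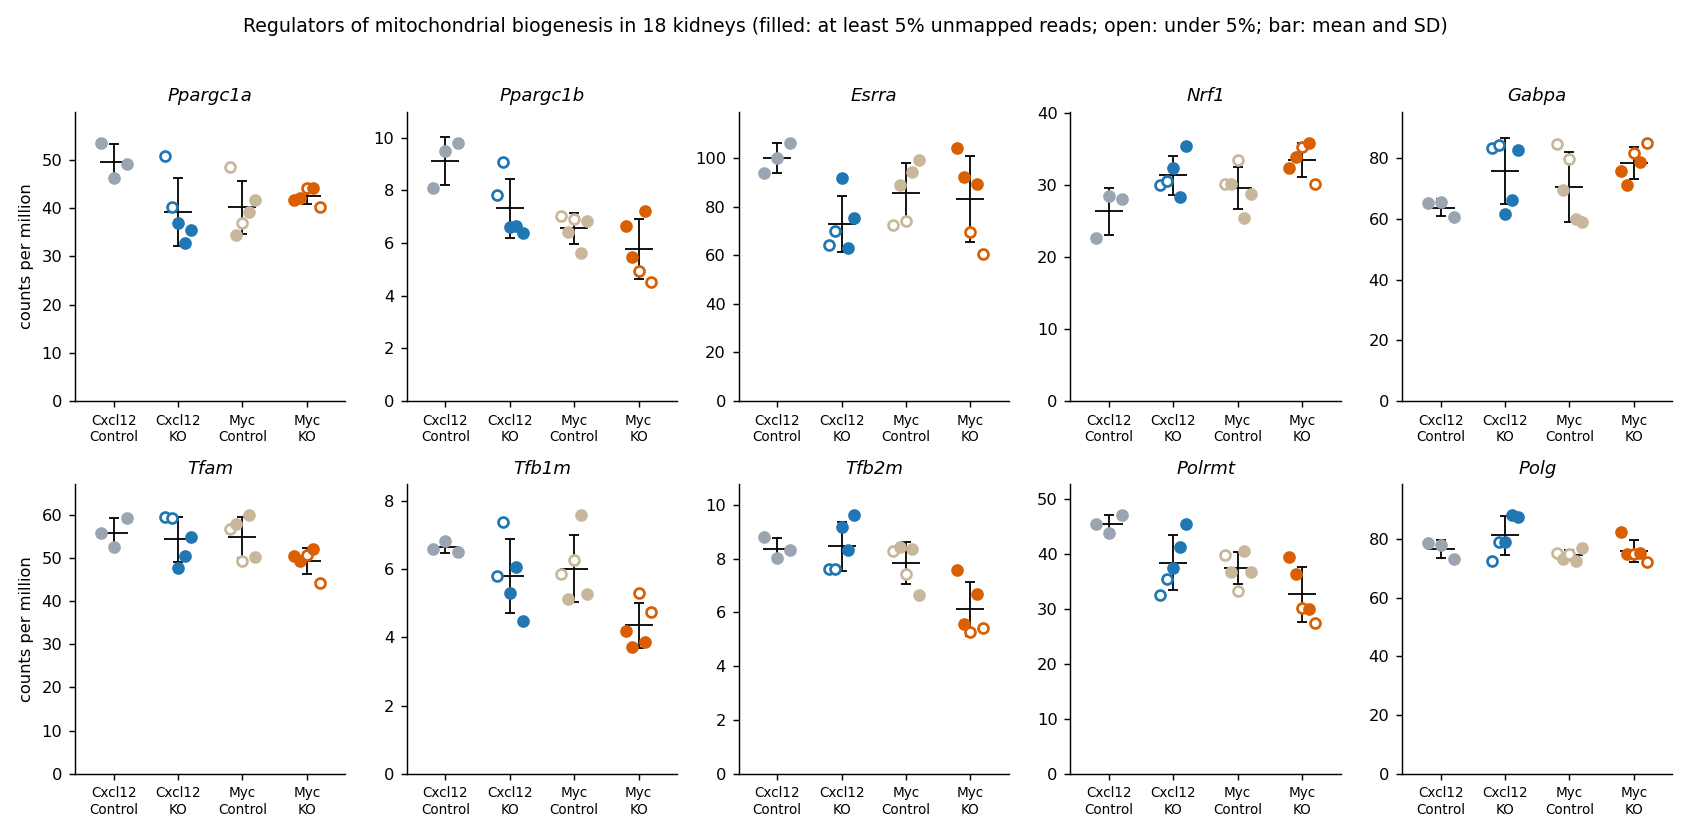
CPM of each regulator (vertical axes, from 0) in each of the 18 kidneys, by genotype group; filled points had at least 5% unmapped reads, open points under 5%, and bars give the mean and SD. The 5 Cxcl12 KO kidneys sat at 63.2 to 91.8 for *Esrra*, below the 3 controls at 94.1 to 106, and *Polg* stayed between 72.3 and 88.1 in all kidneys.

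The first comparison asked whether loss of tubular *Cxcl12* went with other levels of these genes in the injured kidney. *Esrra* was the only regulator whose groups did not overlap, at 73.0 ± 11.6 CPM (SD, n = 5) in Cxcl12 KO against 100.3 ± 6.16 (n = 3) in control kidneys. *Ppargc1a* (mean 39.2 against 49.6), *Ppargc1b* (7.31 ± 1.13 against 9.12 ± 0.917) and *Polrmt* (38.4 ± 5.06 against 45.4 ± 1.64) had lower means in the KO kidneys, and *Nrf1* (31.4 ± 2.72 against 26.4 ± 3.26) and *Gabpa* (75.8 ± 10.9 against 63.8 ± 2.81) higher means. None of the 10 passed the test in edgeR, which called 0% of the 15154 genes tested, although 4 of the 10 and 1976 genes in all had an unadjusted p under 0.05. limma-voom called none of the 10 and 0 genes in all. DESeq2 called *Esrra* alone among the 10, and 353 genes in all. The share of all genes tested in which every KO kidney lay below every control kidney was 4.72%, and the share in which every KO kidney lay above was 4.96%; among the regulators these counts were 1 and 0 of 10.

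The coactivators were lower on average but overlapped the controls. *Ppargc1a* (ENSMUSG00000029167, chr5:51454250-51567726 on GRCm38, minus strand) stood at 50.8, 40.2, 37.0, 32.7 and 35.5 CPM in Cxcl12 KO kidneys 1 to 5 and at 53.5, 46.2 and 49.1 in the controls. Only Cxcl12 KO 1 reached into the control range. This gave a log2 fold change of -0.34 (SE 0.13, edgeR adjusted p = 0.327). Cxcl12 KO 1 was one of the kidneys with under 5% unmapped reads and also held the most RNA of fat in its group: 5 adipose tissue markers summed to 46.8 CPM there, with the brown fat gene *Ucp1* at 5.98, against at most 2.94 summed in the other 4 and at most 39.6 in the 3 controls. PGC-1alpha is also abundant in brown fat, and the part of such RNA in *Ppargc1a* was not tested. Without Cxcl12 KO 1 the *Ppargc1a* log2 fold change was -0.45 (adjusted p = 0.105), and among kidneys with at least 5% unmapped reads (3 KO, 3 control) it was -0.52 (adjusted p = 0.0701). In both of these subsets every KO kidney had a lower adipose sum than every control kidney. *Ppargc1b* stood at 7.83, 9.05, 6.61, 6.66 and 6.39 CPM in the KO kidneys and at 8.08, 9.47 and 9.80 in the controls. The 2 highest KO values were again those of the kidneys with under 5% unmapped reads, and one of them lay inside the control range. The log2 fold change of *Ppargc1b* was -0.31 (SE 0.15, adjusted p = 0.415), and -0.49 (adjusted p = 0.209) among kidneys with at least 5% unmapped reads.

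Among the nuclear factors, *Esrra* (ENSMUSG00000024955, chr19:6910977-6921813 on GRCm38, minus strand) stood at 64.5, 70.0, 91.8, 63.2 and 75.3 CPM in the Cxcl12 KO kidneys and at 94.1, 100.2 and 106 in the controls. Cxcl12 KO 3 came closest to the controls. The log2 fold change was -0.46 (SE 0.12, unadjusted p = 0.00253, adjusted p = 0.150 in edgeR), and DESeq2 gave the same size with an adjusted p of 0.0308. Among kidneys with at least 5% unmapped reads it was -0.40 (adjusted p = 0.258). *Nrf1* had a log2 fold change of 0.24 (SE 0.11, adjusted p = 0.374), with 28.4 to 35.5 CPM in KO and 22.6 to 28.4 in control kidneys. *Gabpa* stood at 83.6, 84.5, 61.8, 66.4 and 82.8 CPM in the KO kidneys and at 65.2, 65.6 and 60.6 in the controls. Of the KO kidneys 4 lay above every control, although Cxcl12 KO 4 did so by less than 1 CPM, and Cxcl12 KO 3 lay inside the control range. The log2 fold change of *Gabpa* was 0.25 (SE 0.12, adjusted p = 0.399), and 0.13 among kidneys with at least 5% unmapped reads. *Gabpa* overlaps *Atp5j* on the opposite strand, and the counts ignored strand, so reads in their shared part were not assigned to either gene.

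None of the genes that act on mitochondrial DNA passed the test. *Polrmt* had a log2 fold change of -0.25 (SE 0.11, adjusted p = 0.369), and -0.14 (adjusted p = 0.550) among kidneys with at least 5% unmapped reads. For *Tfam* the difference was -0.04, with 2 SE bounds of -0.23 and 0.15. For *Tfb2m* it was 0.01 (-0.25 to 0.27) and for *Polg* 0.08 (-0.09 to 0.25), so all bounds of these 3 genes lay within 0.27 of 0. *Tfb1m*, the least abundant, had -0.19 with wider bounds (-0.53 to 0.15). Some markers of the tubule differed in this comparison. The 10 proximal tubule markers summed to 5972 to 6884 CPM in Cxcl12 KO and 7077 to 8515 in control kidneys. The 6 tubular injury markers summed to 14089 to 22087 against 11258 to 12783, with no overlap in either list. The 8 loop, distal and collecting duct markers overlapped (3014 to 5454 against 4050 to 5040), as did the 9 leukocyte markers (90.5 to 171 against 85.3 to 95.8). All 10 proximal tubule markers had a log2 fold change below 0 (median -0.30), 0 of them passed the test, and their part in the values above was not tested. In whole kidneys, fewer cells of a type and less RNA per cell cannot be told apart.

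The second comparison asked the same of tubular *Myc*, a transcription factor known to drive ribosome and mitochondrial gene expression in growing cells. None of the 10 regulators passed the test in edgeR, against 1.65% of 14936 genes tested, nor in DESeq2 or limma-voom. An unadjusted p under 0.05 was found for 2 of the 10 and for 3268 of all 14936 genes, so the share among the regulators was near that of all genes. These 2 were the transcription factor B genes: *Tfb1m* was at 4.36 ± 0.660 CPM (SD, n = 5) in Myc KO against 6.02 ± 0.985 (n = 5) in control kidneys, and *Tfb2m* at 6.11 ± 1.00 against 7.84 ± 0.782. For each of them all 5 KO kidneys lay below the control mean. No regulator had groups that did not overlap; over all genes tested, every KO kidney lay below every control kidney in 3.92% and above in 2.05%.

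*Tfb1m* (ENSMUSG00000036983, chr17:3519256-3557781, minus strand) stood at 4.19, 3.72, 5.30, 3.85 and 4.74 CPM in Myc KO kidneys 1 to 5 and at 5.86, 5.11, 6.26, 7.58 and 5.28 in the controls. Myc KO 3 alone reached past the 2 lowest controls. The log2 fold change was -0.46 (SE 0.15, adjusted p = 0.123), and -0.61 (adjusted p = 0.132) among kidneys with at least 5% unmapped reads. With 53 to 195 reads per kidney it was the most thinly counted of the 10, and it overlaps *Tiam2* on the opposite strand. *Tfb2m* (ENSMUSG00000026492, chr1:179528055-179546267, minus strand) stood at 7.59, 5.58, 5.26, 6.71 and 5.44 CPM in the KO kidneys and at 8.29, 8.45, 7.45, 8.38 and 6.64 in the controls. Myc KO 1 and 4 reached into the control range. For this gene the log2 fold change was -0.36 (SE 0.13, adjusted p = 0.146), and -0.24 (adjusted p = 0.451) among kidneys with at least 5% unmapped reads.

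*Polrmt* had a log2 fold change of -0.20 (SE 0.10, adjusted p = 0.287) and *Tfam* of -0.15 (SE 0.08, adjusted p = 0.276), and for *Tfam* all 5 Myc KO kidneys, at 44.0 to 52.0 CPM, lay below the control mean of 54.8. *Polg* differed by 0.03 (2 SE bounds -0.09 to 0.15). Upstream, *Ppargc1a* stood at 41.8, 42.1, 44.1, 44.1 and 40.1 CPM in the Myc KO kidneys and at 48.5, 34.3, 36.9, 39.2 and 41.7 in the controls. The KO values were the most tightly grouped of all 4 groups and lay within the control range. Its log2 fold change was 0.08 (bounds -0.10 to 0.26). *Ppargc1b* had -0.20 (-0.49 to 0.09), *Nrf1* 0.18 (0.01 to 0.35, adjusted p = 0.237) and *Gabpa* 0.15 (-0.06 to 0.37). Among kidneys with at least 5% unmapped reads *Ppargc1b* overlapped, at 5.463 to 7.202 CPM in Myc KO and 5.604 to 6.822 in controls. Under 5% it was lower in Myc KO, at 4.512 and 4.938 against 6.905 and 7.015. With at least 5%, *Nrf1* was at 32.4 to 35.9 in KO against 25.4 to 30.1. *Gabpa* was at least 71.3 in those KO kidneys and at most 69.7 in the controls. Under 5% both genes overlapped. Cell type markers differed between all Myc KO and Myc Control kidneys too, with none called. All 5 podocyte markers (median log2 fold change 0.34) and all 5 endothelial markers (0.24) were above 0. Of 10 proximal tubule markers 4 were below 0 (median 0.09), and of 6 injury markers 2 (median 0.26). Their part in the values of the regulators was not tested.

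*Esrra* showed no single direction in the *Myc* cohort. It stood at 104, 92.4, 69.7, 89.3 and 60.6 CPM in Myc KO kidneys 1 to 5 and at 72.5, 89.1, 74.2, 94.5 and 99.5 in the controls. In both groups the 2 lowest values were those of the kidneys with under 5% unmapped reads. Its log2 fold change was -0.05 (bounds -0.34 to 0.24), and 0.02 among kidneys with at least 5% unmapped reads.

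**Figure D2:**
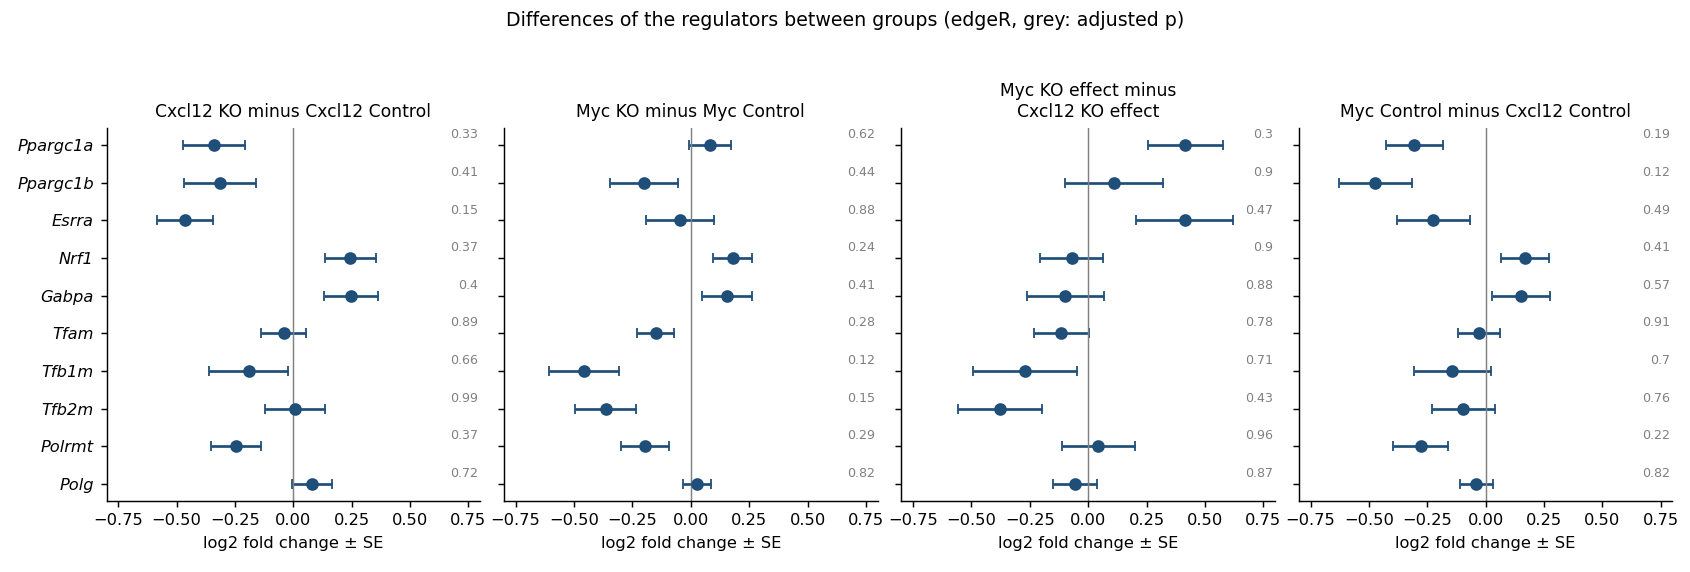
Log2 fold change of each regulator with its standard error (horizontal axes) in 4 comparisons, with the edgeR adjusted p in grey. In Cxcl12 KO kidneys *Esrra* had the largest difference at -0.46, in Myc KO kidneys *Tfb1m* at -0.46, and no adjusted p was under 0.05.

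The KO effects of the cohorts were compared in 1 fit. The KO effect of *Ppargc1a* was higher by 0.42 log2 units in the *Myc* than in the *Cxcl12* cohort (SE 0.16, edgeR adjusted p = 0.304) and that of *Esrra* by 0.41 (SE 0.21, adjusted p = 0.469), while that of *Tfb2m* was lower, at -0.38 (SE 0.18, adjusted p = 0.434). None of the 10 differences passed the test, against 0.0692% of 15903 genes, and 2 of the 10 had an unadjusted p under 0.05, as did 1812 of all genes; DESeq2 and limma-voom called none either. The control groups themselves were not alike. *Ppargc1b* was lower in every Myc Control kidney (5.60 to 7.01 CPM) than in every Cxcl12 Control kidney (8.08 to 9.80), with a log2 fold change of -0.47 (adjusted p = 0.115). *Polrmt* was at 33.3 to 40.6 against 43.8 to 47.0 (-0.28, adjusted p = 0.219), and *Ppargc1a* had -0.31 (adjusted p = 0.192). These were 2 of 10 regulators with every Myc Control kidney below every Cxcl12 Control kidney, where 5.88% of all genes tested were so ordered, and 0 of 10 passed the test, where 1.99% of genes did. Floxed allele, litter and any difference in handling cannot be told apart here, and cell type markers also differed. Proximal tubule markers had a log2 fold change below 0 in 10 of 10, with 2 called lower, *Lcn2* of the injury markers was higher (1.14), and the 9 leukocyte markers summed to 119 to 258 CPM in Myc Control and 85.3 to 95.8 in Cxcl12 Control kidneys. Their part in these values was not tested.

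Regulators passed the test when kidneys were split by the share of unmapped reads. With the 4 groups as terms of the fit, the 6 kidneys with under 5% unmapped reads were compared with the other 12, a comparison that was added after the split had been seen. *Esrra* was lower in the 6 kidneys, at 60.6 to 74.2 CPM, against 63.2 to 106 in the 12 (log2 fold change -0.37, SE 0.08, edgeR adjusted p = 0.00300). *Polrmt* was also lower, at 27.4 to 39.8 against 30.1 to 47.0 (-0.21, SE 0.07, adjusted p = 0.0493). *Gabpa* was higher, at 79.9 to 85.2 against 59.1 to 82.8 (0.26, SE 0.06, adjusted p = 0.00771). These were 3 of 10 regulators, where 16.0% of 15903 genes were called, and DESeq2 and limma-voom called 3 of 10 as well. All 6 kidneys lay on the same side of the mean of the other 12 for each of these 3 genes. That mean takes no account of group and includes all 3 Cxcl12 Control kidneys, whose *Polrmt* was at 43.8 to 47.0 CPM. The share of all genes so placed was not counted. For *Polrmt* the kidneys with under 5% lay below the others in Cxcl12 KO (32.6 and 35.4 against 37.5 to 45.5). They overlapped them in Myc KO (27.4 and 30.3 against 30.1 to 39.5) and Myc Control (33.3 and 39.8 against 36.7 to 40.6). *Nrf1* (0.01), *Tfam* (0.02) and *Ppargc1b* (0.04) differed by less than their standard errors. Cell type markers were read in this split too, and none of the adipose, proximal tubule or tubular injury markers was called. All 5 adipose tissue markers had a log2 fold change above 0 (median 1.82, 3 with an unadjusted p under 0.05), 7 of 10 proximal tubule markers were below 0 (median -0.19, 3 with an unadjusted p under 0.05), and the 6 injury markers had a median of -0.01. Their part in the values of *Esrra*, *Polrmt* and *Gabpa* was not tested.

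**Figure D3:**
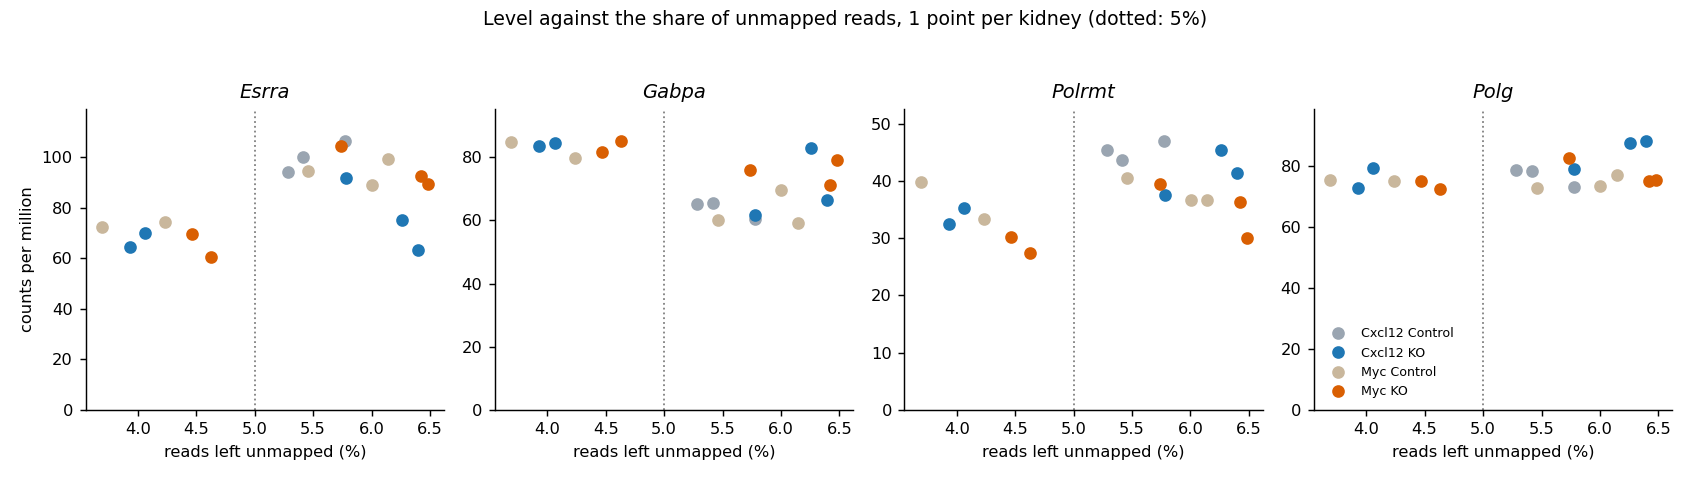
CPM (vertical axes, from 0) of 3 regulators that were called between kidneys with under 5% and at least 5% unmapped reads, and of *Polg*, which was not, against the percentage of unmapped reads (horizontal axes), 1 point per kidney coloured by group. Left of the dotted line at 5%, *Esrra* lay at 60.6 to 74.2 and *Gabpa* at 79.9 to 85.2 in all 3 groups that had such kidneys.

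The genes that work beside and below the regulators were read in the same split. Of 18 nuclear genes of the respiratory chain, 9 were lower in the 6 kidneys and 0 higher (median log2 fold change -0.18, against 0.00 over all genes tested). Over all 15903 genes tested, 1582 were called lower and 955 higher. *Cox4i1* (-0.48) and *Cox5b* (-0.45), subunits of cytochrome c oxidase, were lower in all 6 than in any of the 12. Also lower were *Ndufb8* (-0.38), *Cyc1* (-0.31), *Ndufv1* (-0.28), *Sdhb* (-0.28), *Atp5o* (-0.24) and *Uqcrc1* (-0.20), from complexes I, II, III and V. Of 7 mitochondrial mRNAs that could be tested, 4 were higher and 0 lower (median 0.27), with *mt-Nd5* (0.39) and *mt-Nd6* (0.47), subunits of complex I, higher in all 6, and with *mt-Nd2* (0.30) and *mt-Nd4* (0.27). The share of all genes without overlap in this split was not counted. The other 6 of the 13 mitochondrial mRNAs had a median count under 10, and the 7 tested do not stand for them. Reads that mapped to several places, 16.6% to 18.6% per kidney, were counted on no gene. Their part in these low counts was not tested. *Slirp*, which stabilises mitochondrial mRNAs with LRPPRC, was lower (-0.46), as was the mitochondrial deacetylase *Sirt3* (-0.32). The kinase subunit *Prkaa1* (0.25), the activator *Creb1* (0.30), the corepressor *Nrip1* (0.22) the related receptor *Esrrg* (0.42), the GABPA partner *Gabpb2* (0.17) and the antioxidant response factor *Nfe2l2* (0.25) were higher and the thyroid hormone receptor *Thra* (-0.22) was lower, each with an edgeR adjusted p under 0.05.

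Between genotypes, the neighbouring gene lists held few calls. In Cxcl12 KO kidneys 0 genes of any list passed the test in edgeR, which called 0 of all 15154 genes tested. The largest differences among the neighbouring genes were 0.44 for the mitochondrial termination factor *Mterf1a* (adjusted p = 0.524), -0.37 for *Sirt3* (adjusted p = 0.194) and 0.37 for *mt-Nd6* (adjusted p = 0.400). Of the 18 nuclear respiratory chain genes, 17 had a log2 fold change below 0 (median -0.16), as did 49.8% of all genes tested, while all 7 mitochondrial mRNAs were above 0 (median 0.26). In edgeR 3 of these 18 genes, all lower, and 2 of these 7, both higher, had an unadjusted p under 0.05. The kidneys with under 5% unmapped reads, which showed the same directions, were 2 of 5 KO and 0 of 3 control kidneys. Their part in these directions was not tested. In Myc KO kidneys 17 of the 18 respiratory chain genes were also below 0 (median -0.13, against 50.1% of all genes tested). All 7 mitochondrial mRNAs were above 0 (median 0.07). In edgeR 0 genes of either list had an unadjusted p under 0.05, as 3268 of all 14936 genes did. Kidneys with under 5% unmapped reads were 2 of 5 in each *Myc* group, and their part was not tested. Genes of the same list can vary together, so such counts of directions carry no test. Of the other lists 2 genes passed in Myc KO kidneys, both lower and both without overlap between the groups. Over all 14936 genes tested 1.65% passed, 193 of them lower and 53 higher. Every KO kidney lay below every control kidney in 3.92% of these genes. *Kat2a*, whose product GCN5 acetylates PGC-1alpha, had a log2 fold change of -0.49 (SE 0.08, edgeR adjusted p = 0.0184). The adjusted p rose to 0.0676 without Myc KO 2, to 0.0715 without Myc KO 3 and to 0.0653 without Myc Control 2. *Elac2*, which trims the ends of tRNAs in nucleus and mitochondria, had -0.36 (SE 0.08, adjusted p = 0.0475), and leaving out any kidney but Myc Control 3 took it past 0.05. All 9 tested genes of mitochondrial transcription and RNA stability had a log2 fold change below 0 in Myc KO kidneys (median -0.21), where 50.1% of all genes tested did, and 6 of 10 were below 0 in Cxcl12 KO kidneys (median -0.12). Among those of the Myc KO kidneys was the elongation factor *Tefm* (-0.60, adjusted p = 0.0534). Of 8 genes of mitochondrial DNA replication 6 were below 0 in Myc KO and 7 in Cxcl12 KO kidneys, and 0 passed in either, with *Dna2*, a nuclease and helicase, at -0.68 (adjusted p = 0.122) in Myc KO kidneys. *Perm1*, a muscle gene induced by PGC-1 and ERR, had 0.49 (adjusted p = 0.142) at a mean of 2.57 CPM. None of these genes passed the test of the difference between the cohorts, so no change here is shown to be particular to either.

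From kidney to kidney, several regulators varied with their surroundings. Log2 CPM, centred within the 4 groups, were compared with the mean of 4 gene lists over 18 kidneys, 40 pairs in all, by permutation within groups. *Esrra* varied with the 18 nuclear respiratory chain genes (Pearson's r = 0.77, Spearman's rho = 0.82, permutation p = 0.00105 and 0.000840, adjusted p = 0.0268 and 0.0336) and *Gabpa* against them (r = -0.67, rho = -0.66, permutation p = 0.00639 and 0.00642, adjusted p = 0.0367 and 0.0509). *Polrmt* varied against the mitochondrial mRNAs (r = -0.79, rho = -0.78, permutation p = 0.00299 and 0.00227, adjusted p = 0.0321 and 0.0454). *Ppargc1a* varied against the 6 tubular injury markers (r = -0.69, rho = -0.68, permutation p = 0.00321 and 0.00680, adjusted p = 0.0321 and 0.0509), and *Tfam* with the 10 proximal tubule markers (r = 0.68, rho = 0.59, permutation p = 0.00134 and 0.00890, adjusted p = 0.0268 and 0.0509). Without the 2 kidneys farthest from the median of the regulator, r was 0.72, -0.70, -0.80, -0.61 and 0.59 in these 5 pairs. The adjusted p of Pearson's r was under 0.05 in 8 of 40 pairs and that of Spearman's rho in 2. The other 3 of the 8 were *Gabpa* with the mitochondrial mRNAs (r = 0.64), *Polg* against them (r = -0.71, and -0.47 without the 2 farthest kidneys) and *Polrmt* with the proximal tubule markers (r = 0.65).

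The same relations were computed with the class of unmapped reads removed. Centred within both the group and the class of unmapped reads, *Esrra* and the respiratory chain genes had r = 0.34, *Gabpa* and the same genes -0.27, and *Gabpa* and the mitochondrial mRNAs 0.17. *Ppargc1a* and the injury markers kept r = -0.76, *Tfam* and the proximal tubule markers 0.85, *Polrmt* and the same markers 0.63, and *Polrmt* and *Polg* against the mitochondrial mRNAs -0.57 and -0.63. In the 12 kidneys with at least 5% unmapped reads alone these 5 values were -0.67, 0.78, 0.53, -0.55 and -0.51. With this centring 0 of 40 pairs had an adjusted permutation p under 0.05 and 3 had an unadjusted permutation p under 0.05: *Ppargc1a* with injury (p = 0.00597), *Tfam* with proximal tubule (p = 0.00979) and *Polrmt* with proximal tubule (p = 0.00238). The 18 points share library and depth with both measures of each pair.

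**Figure D4:**
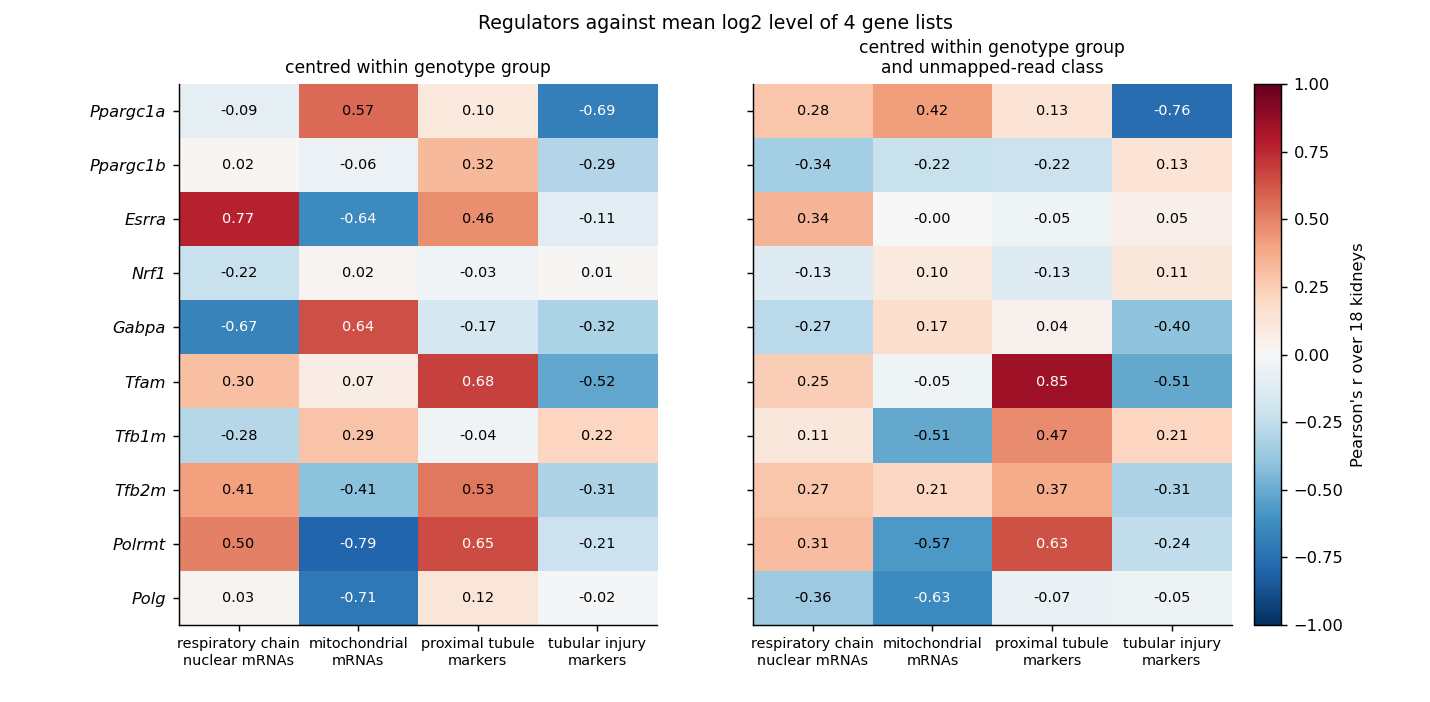
Pearson's r over 18 kidneys between each regulator (rows) and the mean log2 level of 4 gene lists (columns), centred within genotype group (left) or within genotype group and class of unmapped reads (right); the colour scale runs from -1 to 1. *Esrra* against the respiratory chain genes goes from 0.77 to 0.34, while *Ppargc1a* against the injury markers goes from -0.69 to -0.76.

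Among the regulators themselves, the highest r of the group-centred levels was that of *Polrmt* and *Polg* (0.68, and 0.47 when the class of unmapped reads was centred too), followed by *Tfb2m* and *Polrmt* (0.62 and 0.29), and the lowest that of *Esrra* and *Gabpa* (-0.66 and -0.36). *Ppargc1a* and *Esrra*, coactivator and partner, are described by their nearest genes among 11073 with a mean of at least 5 CPM. For *Ppargc1a* these were *Cyfip2* (r = 0.84), *Acacb* (0.80), *Abca13* (0.79), *Cyb5b* (0.78) and *Rhcg* (0.78). For *Esrra* they were *Nelfe* (0.94), *Amacr* (0.92), *Ndufb11* (0.92), *G6pc3* (0.91) and *Fance* (0.90). With the class of unmapped reads centred as well, the values ran from 0.57 to 0.81 for the first 5 and from 0.74 to 0.87 for the second. These are descriptions over 18 kidneys that share their libraries, and carry no test.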

How the data were processed

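RNA of 18 kidneys was sequenced by the study. Each deposited file holds raw counts, without normalization; the study's notes name Trimmomatic 0.32 for trimming and STAR 2.4.0 for alignment and counting. The column that ignores strand was used, since each strand column held about the same share of reads; overlapping genes are therefore not told apart. Rows that name no gene held 29.4% to 32.6% of the reads and were left out. Gene IDs were matched to GENCODE vM21 (GRCm38) for 45143 of 45706 genes.

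Counts were filtered with filterByExpr, scaled by TMM and tested in edgeR 4.0.16 under R 4.3.3 (quasi-likelihood F-test), with Benjamini-Hochberg adjustment over all genes tested and a threshold of 0.05. Each KO group was tested against its own controls, and the difference of the KO effects and of the controls over all 18 kidneys. The comparison of kidneys by unmapped reads was added after the data had been seen. The study's methods state no test per gene on counts. DESeq2 1.42.0, limma-voom (limma 3.58.1) and the other settings below were alternatives. CPM used TMM library sizes, log2 values a prior count of 2, and r was tested with 100000 permutations. Whether replicate kidneys came from separate mice or separate litters is not given in the sources used here, so p-values measure the spread between these kidneys. No 2 kidneys of a group agreed within sampling noise (chi-square per degree of freedom of at least 6.31 in 33 pairs). Tables and plots were made in Python 3.11.15 (scipy 1.17.1, pandas 2.3.3, numpy 2.4.6; figures in matplotlib 3.10.9), and the pipeline was tested on simulated data.

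The regulators and the other gene lists were chosen with earlier results of these data known. Of the other lists, outside the cell type markers, genes were named if their adjusted p was under 0.05 in a comparison or if they had 1 of the 3 largest log2 fold changes of a KO comparison at a mean of at least 1 CPM. For *Ppargc1a* and *Esrra*, the 5 genes with the highest r were named. One gene that met this rule is not reported here.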

Additional observations from a re-analysis of the deposited data

Results flagged for a closer look

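In 60 groups of 5 kidneys, over the regulators, the targeted genes and the summed cell type markers, 1 value stood far from the others, where chance sets apart about 1 group in 20. The 5 adipose tissue markers summed to 46.8 CPM in Cxcl12 KO 1, against 1.05 to 2.94 in the other 4 kidneys of its group. The same kidney had the highest *Ppargc1a* level of its group, 50.8 CPM. Myc KO 5 had the most adipose RNA of all kidneys, 75.7 CPM, with *Ppargc1a* at 40.1.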

How the results depend on the processing

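Over 13 other settings and the leaving out of each kidney, the regulators stayed without an adjusted p under 0.05 in 1058 of 1059 values, in 4 comparisons. The exception was *Esrra* in Cxcl12 KO kidneys by DESeq2, where 1 of 10 regulators was called. In 41 of the values the sign differed, none of them beyond 0.141 in size. Leaving out each kidney gave 0 to 0 called regulators in every comparison. Counts over all genes moved more. In the *Cxcl12* cohort 0 genes became 214 without a filter, 12 with a mean count of at least 100, 353 in DESeq2, 9 on the first strand, 123 with the class of unmapped reads as a term, 80 with kidneys of at least 5% unmapped reads only, and 19 with a GC and length correction; leaving out kidneys gave 0 to 15. In the *Myc* cohort 246 became 1131 in DESeq2, 954 with the class as a term, 8 in kidneys of at least 5%, and 383 with the GC and length correction; leaving out kidneys gave 21 to 877. For the difference of the KO effects 11 became 6 with upper quartile scaling, 5 with a mean count of at least 100, 324 in DESeq2, 3 in limma-voom, 4 and 7 on the single strands, 133 with the class as a term, 44 in kidneys of at least 5%, and 81 with the GC and length correction; leaving out kidneys gave 1 to 75. Between the controls 316 became 801 in DESeq2, and 49 to 611 when kidneys were left out. The cause was not tested. Pairs of a regulator and a list with an adjusted p under 0.05 went from 8 to 0 when the class of unmapped reads was centred too. *Kat2a* lost its call in 2 of 13 settings and without 3 of 10 kidneys, and *Elac2* in 8 of 13 and without 9 of 10.

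Whether replicate numbers pair the kidneys could not be settled with so few pairs. The deviations of equal-numbered kidneys had r of -0.03 to 0.13 in the *Cxcl12* cohort (mean 0.07, 3 pairs). Kidneys with different numbers had -0.13 to 0.19 there (mean -0.02, 12 pairs). In the *Myc* cohort r was -0.21 to 0.40 for equal numbers (mean 0.05, 5 pairs). For different numbers it was -0.52 to 0.48 (mean -0.01, 20 pairs). With the replicate number as a block, 0 regulators were called in all 4 comparisons, and all genes called were 0, 18, 1 and 322 for the *Cxcl12*, *Myc*, difference and control comparisons; with the GC and length correction in the same fit they were 0, 180, 1 and 405.

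Depth limits *Tfb1m*, *Ppargc1b* and *Tfb2m* most, the 3 regulators with the fewest reads.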
